A study of Mus musculus with 3 samples.

Results

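Intermediate filaments are the rope-like cytoskeletal polymers of the cytoplasm and of the nuclear lamina, and 8 genes that encode them were examined: the simple epithelial keratins Krt7, Krt8, Krt18 and Krt19, the mesenchymal and progenitor filaments Vim and Nes, and the lamins Lmna and Lmnb1. They were chosen by name as epithelial keratins set against mesenchymal and nuclear filaments, out of 18193 genes with probe sets of their own, and every probe set with a single gene symbol was read, 19 in all. Expression was measured on Affymetrix arrays in the mouse embryonic stem cell line A2.snail, in which doxycycline switches on Snail, a zinc finger repressor that drives epithelial to mesenchymal transition. All cells came from day 3 of culture as embryoid bodies, suspended clumps in which stem cells begin to differentiate, in serum medium with DKK1, a secreted Wnt inhibitor. The 3 groups were Snail-induced Flk1+ cells and Snail-induced Flk1- cells, both from cultures given 250 ng/mL doxycycline on day 2, and untreated Flk1- cells at 0 ng/mL; Flk1, the product of Kdr, is a VEGF receptor found on mesoderm that can form endothelium and blood.

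Each group had 1 array, so nothing here was checked against replicates or tested, and the small number of arrays limits how precise any value is. A2.snail was the single line. Arrays of untreated Flk1+ cells, or of cells that received doxycycline but lack inducible Snail, were not analysed here, so effects of Snail and of doxycycline cannot be told apart. The column medians were 44.6, 42.4 and 42.7 intensity units in Snail-induced Flk1+, Snail-induced Flk1- and untreated Flk1- cells. A value under 25.6 units, the 40th percentile of all values, was taken as under the floor, and 13969 genes reached the floor on at least 1 array. Differences are of log2(intensity + 9.53), folds are taken on that scale, and where only the brighter of 2 values reached the floor, that value over the floor is given as at least that many fold. Kdr gave 404 units in Snail-induced Flk1+ cells against 9.73 in Snail-induced Flk1- cells, which bears on the sort label only, since the cells were sorted on its product. The Snai1 probe set gave 19.8, 13.1 and 29.1 units in Snail-induced Flk1+, Snail-induced Flk1- and untreated Flk1- cells, near or under the floor, so it does not check the induction label.

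Keratin filaments are obligate heteropolymers, built from pairs of an acidic type I keratin, here Krt18 or Krt19, and a basic type II keratin, here Krt8 or Krt7. They are anchored at desmosomes and give simple epithelia mechanical strength; Krt8 and Krt18 are the first keratins of the embryo. Vimentin, a type III protein that polymerises by itself, is the filament of mesenchymal cells, and nestin, a type VI protein of neural and other progenitors, assembles together with vimentin. Lamins are the type V filaments that line the inner nuclear membrane; lamin B1 is made in most cells, whereas A-type lamins from Lmna are low in pluripotent cells and appear with differentiation. Replacement of keratins by vimentin is a textbook mark of epithelial to mesenchymal transition, and Snail binds DNA at the hexamer CAGGTG, an E-box that reads CACCTG on the other strand.

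The promoter windows of 3 keratin genes and of Vim are printed because the keratin windows each hold that hexamer, the Vim window does not, and the 3 keratins differed unequally between arrays. They are the RefSeq windows of GRCm38.p6 from 250 bases before to 50 bases after the gene start, written 5′ to 3′ on the gene's strand, with CAGGTG or CACCTG in capitals where it occurs. The windows lie at chr15:102027966-102028265 on the plus strand for Krt18, at chr15:102004293-102004592 on the minus strand for Krt8, at chr15:101412153-101412452 on the plus strand for Krt7 and at chr2:13574061-13574360 on the plus strand for Vim.
Krt18: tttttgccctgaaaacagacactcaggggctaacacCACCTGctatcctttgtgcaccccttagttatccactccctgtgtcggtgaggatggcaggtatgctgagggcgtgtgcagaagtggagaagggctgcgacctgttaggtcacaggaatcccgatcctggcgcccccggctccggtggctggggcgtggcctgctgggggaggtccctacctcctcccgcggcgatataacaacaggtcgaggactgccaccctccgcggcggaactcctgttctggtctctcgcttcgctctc
Krt8: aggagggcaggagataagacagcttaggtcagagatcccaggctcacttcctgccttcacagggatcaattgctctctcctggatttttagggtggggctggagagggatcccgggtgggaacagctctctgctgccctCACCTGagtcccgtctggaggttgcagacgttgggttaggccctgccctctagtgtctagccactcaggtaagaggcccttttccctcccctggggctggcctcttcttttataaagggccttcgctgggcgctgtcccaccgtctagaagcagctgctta
Krt7: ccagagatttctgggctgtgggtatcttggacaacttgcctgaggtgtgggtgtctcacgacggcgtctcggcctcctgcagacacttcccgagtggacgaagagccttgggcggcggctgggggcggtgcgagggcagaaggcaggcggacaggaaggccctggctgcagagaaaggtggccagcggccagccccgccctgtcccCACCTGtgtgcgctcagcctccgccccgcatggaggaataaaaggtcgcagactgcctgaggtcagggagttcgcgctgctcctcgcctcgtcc
Vim: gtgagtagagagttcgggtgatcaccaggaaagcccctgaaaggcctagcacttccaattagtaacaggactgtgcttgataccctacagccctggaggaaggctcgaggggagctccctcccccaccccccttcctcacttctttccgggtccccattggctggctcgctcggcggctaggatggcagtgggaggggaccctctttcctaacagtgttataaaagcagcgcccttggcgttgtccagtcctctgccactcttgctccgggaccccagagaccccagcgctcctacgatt

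Each of the 3 keratin windows held the hexamer once, as CACCTG, starting 214 bases before the gene start in Krt18, 111 bases before it in Krt8 and 44 bases before it in Krt7. The windows of Vim and Nes and both windows of Lmna held neither spelling. Windows of Krt19 and Lmnb1 were not analysed here. Over all 32851 RefSeq windows of the same 300 bases, 20.2% held at least 1 copy on either strand. A match describes the letters of the window and is not a binding site. Krt8 and Krt18 are close neighbours on chromosome 15, with 0 protein-coding genes and 2 noncoding ones, Gm36026 and Gm41404, between them.

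**Figure D1:**
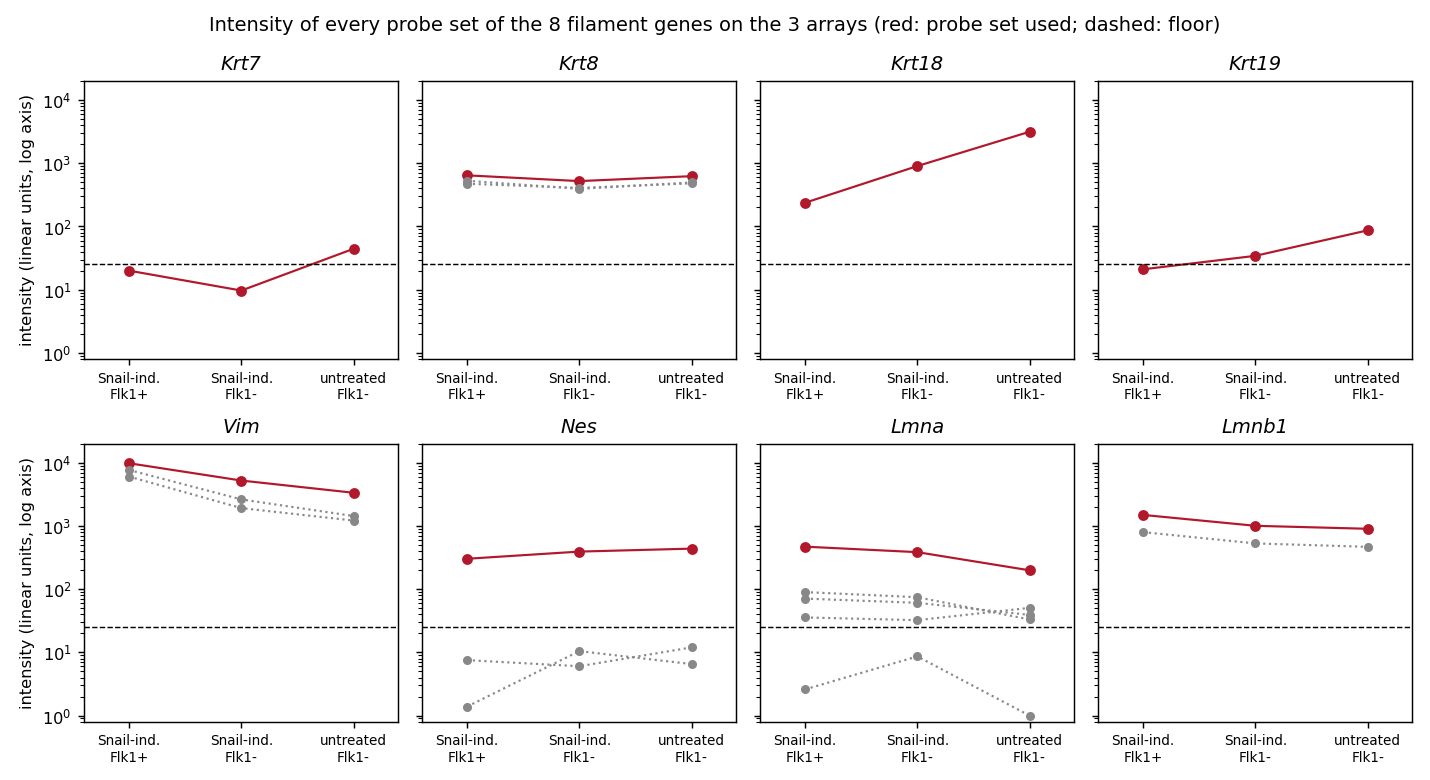
Intensity of all 19 probe sets of the 8 filament genes (log axis) on the arrays of Snail-induced Flk1+, Snail-induced Flk1- and untreated Flk1- cells; lines join the values of 1 probe set and are red for the probe set used, and the dashed line is the floor of 25.6 units. Krt18 spans 238 to 3152 units while its partner Krt8 stays between 523 and 644, and all 3 Vim probe sets are highest in Flk1+ cells.

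Krt18, the type I keratin of simple epithelia, differed more between arrays than any other gene of the set. Its single probe set gave 238 units in Snail-induced Flk1+ cells, 904 in Snail-induced Flk1- cells and 3152 in untreated Flk1- cells, so that the untreated array was the highest and the Flk1+ array the lowest. Snail-induced Flk1- cells were 3.46-fold lower than untreated Flk1- cells, a log2 difference of -1.79, and 16 of the 13969 measured genes had a lower one. Snail-induced Flk1+ cells were a further 3.70-fold lower than Snail-induced Flk1- cells, where 135 genes had a lower difference. The resulting log2 difference between Snail-induced Flk1+ and untreated Flk1- cells was -3.68, or 12.8-fold lower. No second probe set reads Krt18, so no other measurement of it can be set beside these values.

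Krt19, a type I keratin of ductal and visceral epithelia, ran in the same order at dim levels. It gave 21.0 units in Snail-induced Flk1+ cells, 34.3 in Snail-induced Flk1- cells and 86.8 in untreated Flk1- cells, the first of these under the floor. It was 2.20-fold lower in Snail-induced Flk1- than in untreated Flk1- cells and at least 3.40-fold lower in Snail-induced Flk1+ than in untreated Flk1- cells. Between Snail-induced Flk1+ and Snail-induced Flk1- cells the log2 difference was -0.52, short of 2-fold. Both type I keratins were thus at least 2-fold lower in Flk1- cells with Snail induced.

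Krt8, the type II partner of Krt18, did not follow it. Its brightest probe set gave 644 units in Snail-induced Flk1+ cells, 523 in Snail-induced Flk1- cells and 625 in untreated Flk1- cells, so that the Snail-induced Flk1- array was lowest and Snail-induced Flk1+ cells stood 1.23-fold above it. The other 2 Krt8 probe sets showed the same dip, with 529, 395 and 496 units and with 474, 407 and 481 units in the same order of arrays. Over the 3 probe sets the log2 difference ran between -0.32 and -0.24 for Snail-induced Flk1- against untreated Flk1- cells, between 0.22 and 0.41 for Snail-induced Flk1+ against Snail-induced Flk1- cells, and between -0.02 and 0.09 for Snail-induced Flk1+ against untreated Flk1- cells. The sign of the last is not settled: it was slightly positive at 0.04 for the brightest probe set as deposited and slightly negative with quantile normalisation (-0.08) or with each array centred (-0.03).

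The pair therefore changed unequally within the same arrays. The log2 difference of Krt18 minus that of Krt8 was -1.54 for Snail-induced Flk1- against untreated Flk1- cells, -2.18 for Snail-induced Flk1+ against Snail-induced Flk1- cells and -3.72 for Snail-induced Flk1+ against untreated Flk1- cells, the last equal to a 13.2-fold unequal change. For Krt19 against Krt8 the unequal change in that last comparison was 3.25-fold on the same scale, with Krt19 under the floor in Flk1+ cells. All 3 Krt8 probe sets carry a suffix that marks probes shared by several transcripts, whereas the Krt18 and Krt19 probe sets do not, and the part of this in the inequality was not tested. In these sorted populations fewer cells with keratin and less keratin RNA per cell cannot be told apart.

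Krt7, the other type II keratin, reached the floor on 1 array only. It gave 20 units in Snail-induced Flk1+ cells, 9.69 in Snail-induced Flk1- cells and 44.4 in untreated Flk1- cells. It was at least 1.74-fold lower on each Snail-induced array than in untreated Flk1- cells, and its log2 differences on the offset scale were -1.49 for Snail-induced Flk1- and -0.87 for Snail-induced Flk1+ cells. Since Krt7 passed the floor through the untreated array alone, a lower value on the others was built into its selection.

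**Figure D2:**
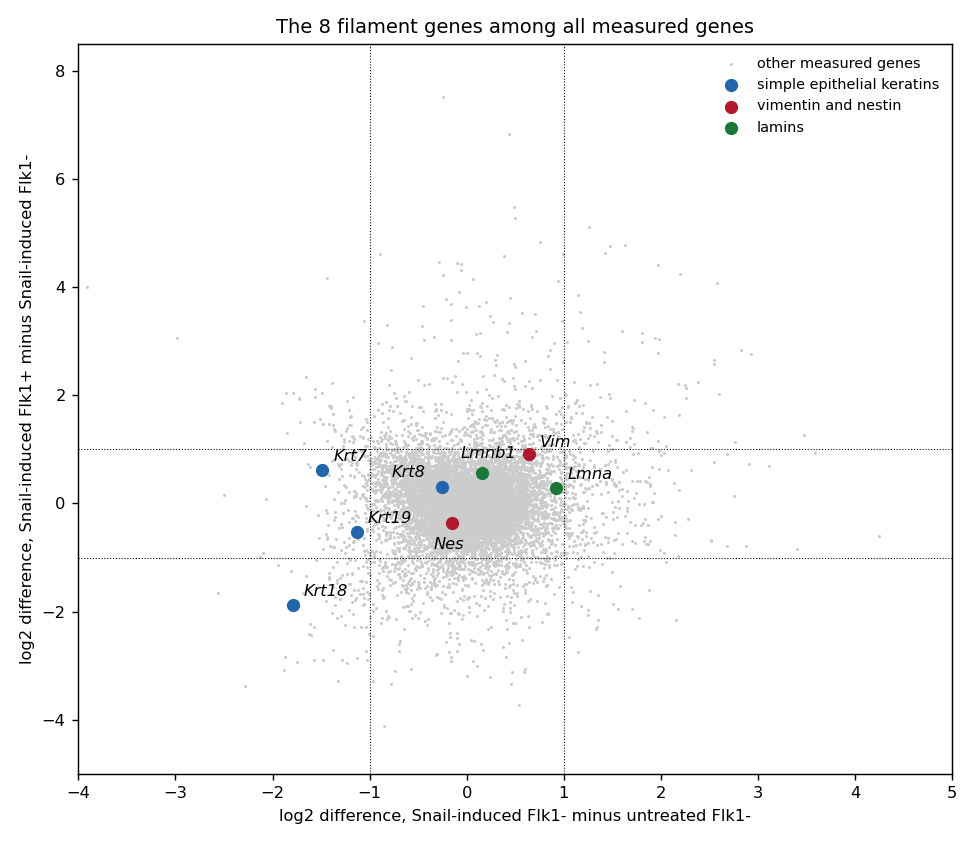
Each point is 1 measured gene, with the log2 difference of Snail-induced Flk1- minus untreated Flk1- cells on the horizontal axis and of Snail-induced Flk1+ minus Snail-induced Flk1- cells on the vertical axis; dotted lines mark 2-fold. Krt18 lies at -1.79 and -1.89, Krt8 near the origin at -0.25 and 0.30, and Vim at 0.64 and 0.91.

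Vim was brightest in Flk1+ cells by each of its 3 probe sets. The brightest probe set gave 9821 units in Snail-induced Flk1+ cells, 5233 in Snail-induced Flk1- cells and 3354 in untreated Flk1- cells. The second gave 7682, 2631 and 1437 units and the third 6041, 1918 and 1218 units in the same order. Between Snail-induced Flk1- and untreated Flk1- cells the probe sets were 1.56-fold, 1.83-fold and 1.57-fold higher, none of them 2-fold.

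The probe sets of Vim disagreed on the size of the difference across the Flk1 gate. Snail-induced Flk1+ cells were higher than Snail-induced Flk1- cells by 1.88-fold, 2.91-fold and 3.14-fold, so that the brightest probe set stayed short of 2-fold and the other 2 passed it. Against untreated Flk1- cells, Snail-induced Flk1+ cells were higher by 2.92-fold, 5.32-fold and 4.93-fold. On the brightest probe set's scale 540 of the 13969 measured genes had a higher log2 difference than Vim in that comparison. The log2 difference of Vim exceeded that of Krt18 by 2.43 for Snail-induced Flk1- against untreated Flk1- cells and by 5.22 for Snail-induced Flk1+ against untreated Flk1- cells, a 37.4-fold unequal change.

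Nes, whose product joins vimentin in progenitor cells, ran in the opposite order to Vim, short of 2-fold in every comparison. Its 1 probe set above the floor gave 303 units in Snail-induced Flk1+ cells, 393 in Snail-induced Flk1- cells and 438 in untreated Flk1- cells, lowest where Vim was highest. The log2 difference was -0.52 for Snail-induced Flk1+ against untreated Flk1- cells, 1.43-fold lower, and -0.15 for Snail-induced Flk1- against untreated Flk1- cells. The other 2 Nes probe sets stayed under the floor on every array, at 11.99 units or less.

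Lmna, which encodes lamins A and C, was higher on both Snail-induced arrays. Its brightest probe set gave 471 units in Snail-induced Flk1+ cells, 385 in Snail-induced Flk1- cells and 199 in untreated Flk1- cells. The difference lay mostly between the treated and the untreated culture, 1.89-fold for Snail-induced Flk1- against untreated Flk1- cells and 1.22-fold for Snail-induced Flk1+ against Snail-induced Flk1- cells. A dimmer probe set gave 89.9, 74.7 and 33.2 units in the same order, 1.97-fold higher in Snail-induced Flk1- than in untreated Flk1- cells, and another gave 71.0, 60.9 and 39.2 units.

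The fourth Lmna probe set above the floor went the other way, with 35.7 units in Snail-induced Flk1+ cells, 32.3 in Snail-induced Flk1- cells and 50.6 in untreated Flk1- cells, and the fifth stayed under the floor. In Snail-induced Flk1+ against untreated Flk1- cells the brightest probe set was 2.30-fold higher; with the mean of all 5 probe sets the log2 difference was 0.59, short of 2-fold.

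Lmnb1, the gene of the B-type lamin made in most cells, was under 2-fold in every comparison. Its 2 probe sets gave 1495 and 799 units in Snail-induced Flk1+ cells, 1006 and 530 in Snail-induced Flk1- cells, and 903 and 468 in untreated Flk1- cells, highest in Flk1+ cells for both. The log2 differences were 0.57 and 0.58 for Snail-induced Flk1+ against Snail-induced Flk1- cells, and 0.15 and 0.18 for Snail-induced Flk1- against untreated Flk1- cells. The log2 difference of Lmna minus that of Lmnb1 was 0.77 for Snail-induced Flk1- against untreated Flk1- cells and -0.29 for Snail-induced Flk1+ against Snail-induced Flk1- cells.

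**Figure D3:**
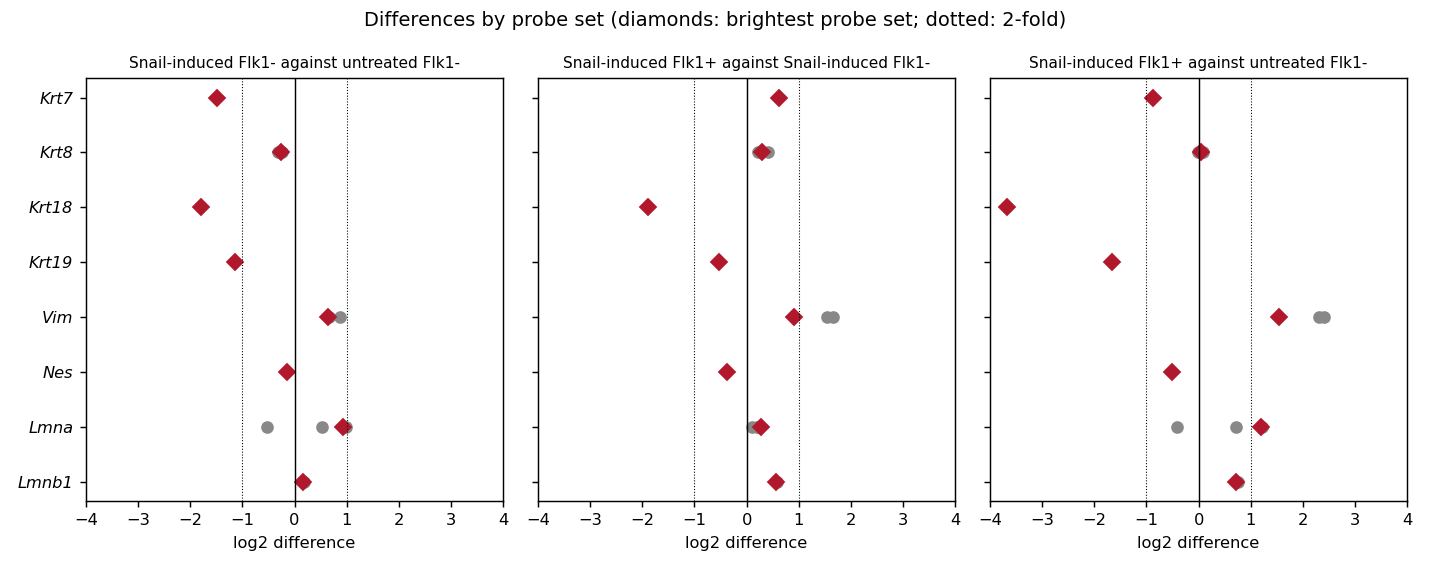
Log2 differences of the 16 member probe sets that reached the floor on at least 1 array, 1 panel per comparison; red diamonds are the brightest probe set of each gene, grey points its other probe sets and dotted lines 2-fold. The 3 Krt8 probe sets lie close together in each panel, the Vim probe sets run between 0.91 and 1.65 in Snail-induced Flk1+ against Snail-induced Flk1- cells, and 1 Lmna probe set has the opposite sign in the outer panels.

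All 8 genes reached the floor on at least 1 array, and counts by their brightest probe sets can be read beside all measured genes. Since the 8 were named with earlier results of these data known, the counts describe them and support nothing. For Snail-induced Flk1- against untreated Flk1- cells, 3 of 8 were at least 2-fold lower (Krt18, Krt19 and, by its difference on the offset scale, Krt7), beside 2.03% of measured genes, and 0 of 8 at least 2-fold higher, beside 2.95%. Over all genes that was 412 higher and 283 lower, a split that turned to 314 higher and 398 lower with each array centred. Krt7 reached the floor in untreated Flk1- cells alone, so its place among the lower genes was built in. Its bound was at least 1.74-fold, short of 2-fold. For Snail-induced Flk1+ against Snail-induced Flk1- cells, 1 of 8 was lower (Krt18), beside 4.89%, and 0 of 8 higher, beside 4.85%. For Snail-induced Flk1+ against untreated Flk1- cells, 2 of 8 were lower (Krt18 and Krt19), beside 6.41%, and 2 of 8 higher (Vim and Lmna), beside 8.10%. The median log2 difference of the 8 was -0.20, 0.29 and -0.24 in these comparisons, beside 0.04, 0.00053 and 0.01 for all measured genes. Both comparisons with untreated Flk1- cells share that array, and the difference of Snail-induced Flk1+ from untreated Flk1- cells is the sum of the other 2 on the log scale.

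Most other keratins were not measurable. Of 44 further keratin genes with a probe set, all but 11 stayed under the floor on every array, among them the basal epidermal pair Krt5 and Krt14 and the suprabasal Krt1. Of the 11 measured, 1 was at least 2-fold lower in Snail-induced Flk1- than in untreated Flk1- cells, beside 2.03% of all measured genes. This was Krt72, a type II keratin of the hair follicle's inner root sheath, with 19.0 units in Snail-induced Flk1- cells against 75.0 in untreated Flk1- cells. Krt72 gave 71.0 units in Snail-induced Flk1+ cells, at least 2.78-fold above Snail-induced Flk1- cells. Krt84, a hair keratin gene, was the lower one in Flk1+ cells in both of the other comparisons, with 3.40, 19.6 and 25.7 units in Snail-induced Flk1+, Snail-induced Flk1- and untreated Flk1- cells, around or under the floor throughout. The others with the highest means were Krt42, with 399, 221 and 363 units, Krt10, with 342, 210 and 181 units, and Krt81, with 114, 58.3 and 65.5 units in that order of arrays, none of them past 2-fold.

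The other cytoplasmic filament genes differed in both directions. Des, which encodes the muscle filament desmin, gave 237 units in Snail-induced Flk1+ cells, 138 in Snail-induced Flk1- cells and 89.6 in untreated Flk1- cells, 2.49-fold higher in the first than in the last. Prph, the gene of the peripheral neuron filament peripherin, gave 19.7, 79.0 and 189 units in the same order, at least 7.40-fold lower in Snail-induced Flk1+ and 2.24-fold lower in Snail-induced Flk1- than in untreated Flk1- cells. Desmin and peripherin are type III proteins like vimentin. In Snail-induced Flk1+ against untreated Flk1- cells 1 of these 2 genes thus moved with Vim and 1 against it. In Snail-induced Flk1- against untreated Flk1- cells the 2 Des probe sets disagreed, 1 higher and 1 lower. Gfap, also in this list, was under the floor on every array.

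The neurofilament genes were lower in Flk1+ cells or flat. Nefh, the heavy subunit gene, gave 18.7 units in Snail-induced Flk1+ cells, 111 in Snail-induced Flk1- cells and 231 in untreated Flk1- cells, at least 9.02-fold lower in the first than in the last. Nefl, the light subunit gene, gave 788, 1095 and 1607 units, 2.03-fold lower, and Nefm, the medium subunit gene, 166, 206 and 161 units. Ina, which encodes alpha-internexin, gave 977, 1726 and 1385 units and was not past 2-fold. Bfsp2, another gene of this list, gave 55.0, 34.8 and 53.5 units, and Synm, the synemin gene, 49.8, 42.2 and 35.7 units. In all, of 8 measured genes of this list, 0 were higher and 1 lower in Snail-induced Flk1- against untreated Flk1- cells, beside 2.95% and 2.03% of all measured genes. In Snail-induced Flk1+ against Snail-induced Flk1- cells 0 were higher and 2 lower, beside 4.85% and 4.89%. In Snail-induced Flk1+ against untreated Flk1- cells 1 was higher and 3 lower, beside 8.10% and 6.41%.

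The plakins, giant proteins that tie filaments to junctions and to other cytoskeletal polymers, held 2 genes that were lower with the type I keratins. Eppk1, whose product epiplakin binds keratin networks, gave 15.7 units in Snail-induced Flk1+ cells, 57.6 in Snail-induced Flk1- cells and 159 in untreated Flk1- cells. It was 2.52-fold lower in Snail-induced Flk1- and at least 6.23-fold lower in Snail-induced Flk1+ than in untreated Flk1- cells. Dsp, whose product desmoplakin anchors keratins at desmosomes, gave 156, 254 and 461 units in the same order and was 2.85-fold lower in Snail-induced Flk1+ than in untreated Flk1- cells. Plec, the gene of the plectin linker that also binds vimentin, gave 485, 360 and 448 units and Macf1, which links actin and microtubules, gave 1830, 1089 and 910 units, just short of 2-fold higher in Snail-induced Flk1+ than in untreated Flk1- cells. Dst, the dystonin gene, was level at 405, 403 and 405 units. Of 7 measured plakins, 0 were higher in any of the 3 comparisons, beside 2.95%, 4.85% and 8.10% of all measured genes. In the same order of comparisons 1, 1 and 2 were lower, beside 2.03%, 4.89% and 6.41%.

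For the partners of the lamins the counts lay near the shares over all genes. Of 17 measured genes of the lamina and nuclear envelope, 0 passed 2-fold in Snail-induced Flk1- against untreated Flk1- cells. The shares over all measured genes were 2.95% higher and 2.03% lower. In Snail-induced Flk1+ against Snail-induced Flk1- cells 0 passed 2-fold, beside 4.85% higher and 4.89% lower. In Snail-induced Flk1+ against untreated Flk1- cells 0 were lower, beside 6.41%, and 2 were higher, beside 8.10%. These were Syne2, the gene of nesprin-2, which couples the nucleus to the cytoskeleton, with 602, 366 and 243 units in Snail-induced Flk1+, Snail-induced Flk1- and untreated Flk1- cells, and Tor1aip1, the gene of the lamin-binding protein LAP1, with 798, 588 and 385 units. Lmnb2, the other B-type lamin gene, gave 317, 345 and 358 units. Lbr, the lamin B receptor gene, gave 4357, 4135 and 4642 units in that order of arrays, and Tmpo, the gene of the lamina protein LAP2, 3220, 2680 and 2515 units. Banf1, a small chromatin and lamina bridging protein, gave 3211, 3987 and 4153 units. Of 5 genes that prenylate and trim lamins, 0 were past 2-fold in any comparison. The shares over all measured genes ran between 2.03% and 8.10% in each direction. Zmpste24, the protease that matures prelamin A, gave 686, 640 and 589 units. Fnta and Fntb, the farnesyltransferase subunit genes, gave 2801, 3814 and 3968 and 823, 1057 and 1048 units.

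Among 11 measured kinase and chaperone genes that act on filaments, Hspb1, a small heat shock protein that binds keratin, was 2.49-fold lower in Snail-induced Flk1+ than in Snail-induced Flk1- cells, with 1001 against 2508 units. Prkce and Prkca, protein kinase C genes whose products phosphorylate filament proteins, were 2.36-fold and 2.04-fold higher in Snail-induced Flk1+ than in untreated Flk1- cells, although 1 of 2 Prkca probe sets was lower. Sfn, the gene of an epithelial 14-3-3 protein, gave 9.17 units in Snail-induced Flk1+ cells, 7.77 in Snail-induced Flk1- cells and 29.2 in untreated Flk1- cells, above the floor in the last only. Cdk1, the mitotic kinase that phosphorylates lamins, gave 5889, 4904 and 4558 units and was not past 2-fold, nor were the chaperone gene Hspa8, with 13060, 12392 and 13005 units, and the 14-3-3 gene Ywhaz, with 6254, 4867 and 4958 units.

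**Figure D4:**
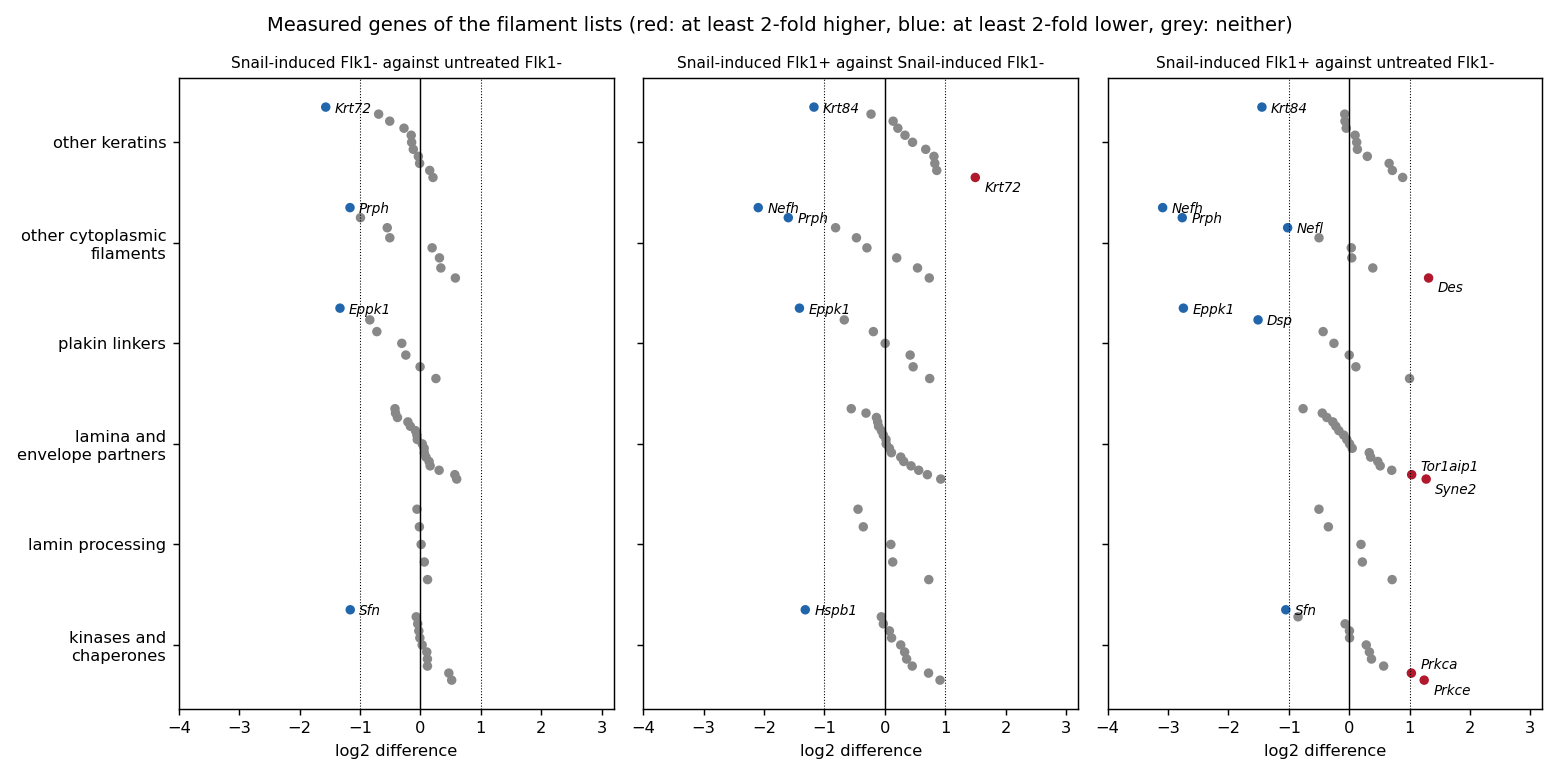
Log2 differences of the measured genes of 6 filament lists, 1 panel per comparison, with genes at least 2-fold higher in red, at least 2-fold lower in blue and others in grey. Points and colours follow the difference on the offset scale, also where a value was under the floor, and do not show the bounds. In Snail-induced Flk1+ against untreated Flk1- cells Nefh, Prph and Eppk1 were at least 9.02-fold, 7.40-fold and 6.23-fold lower. Krt84 and Sfn count as lower in that comparison although their bounds are short of 2-fold. Krt84 also counts as lower in Snail-induced Flk1+ against Snail-induced Flk1- cells, where both values were under the floor and no bound exists.

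Markers of the cells in which these filaments are usual were read beside them, and their part in the filament differences was not tested. The lists were chosen with earlier results of these data known, so their counts are description only. Of 9 epithelial genes that encode no filament, 9 were at least 2-fold lower in Snail-induced Flk1- than in untreated Flk1- cells, beside 2.03% of measured genes. Their folds ran between 2.05 for Cdh1 and 5.93 for Cldn7. The summed level of the 9 was 1110 units in Snail-induced Flk1+, 5473 in Snail-induced Flk1- and 13759 in untreated Flk1- cells. Cdh1, the E-cadherin gene, was at 624, 3086 and 6338 units of these. Of 14 trophoblast markers, a cell type rich in Krt7 and Krt8, 10 were measured, with sums of 833, 799 and 757 units over the 12 with a probe set. The defining markers Cdx2 and Elf5 were under the floor on every array. In Snail-induced Flk1+ against Snail-induced Flk1- cells, though, 3 of the 10 were higher, beside 4.85% of measured genes, and 1 lower, beside 4.89%. Gata3 gave 197, 16.3 and 1.31 units, Plac1 67.8, 15.2 and 18.1, Tpbpa 27.6, 8.66 and 7.48, and the lower one, Tfap2c, 97.6, 315 and 280. Gata3, Plac1 and Tpbpa passed the floor in Flk1+ cells alone, so a higher value there was built into their selection. Tpbpa was at least 1.08-fold higher, a bound short of 2-fold. Of 13 primitive and visceral endoderm markers, another keratin-bearing type, 8 were measured and Afp, Ttr, Apoa1 and Foxa2 were under the floor throughout; the sums were 2411, 1166 and 828 units, of which Sox7, also an endothelial gene, made 1291, 95.1 and 95.5. In Snail-induced Flk1+ against untreated Flk1- cells 4 of these 8 were higher, beside 8.10% of measured genes. They were Sox7, Gata6 with 152, 35.6 and 22.1 units, Dab2 with 560, 404 and 168 units and Apob with 39.7, 27.2 and 13.1 units. Apob was at least 1.55-fold higher, a bound short of 2-fold. Cubn was lower with 44.0, 257 and 220 units.

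Markers of cells rich in vimentin or nestin had these levels, in the same order of arrays. Feeder fibroblast markers summed to 843, 1024 and 530 units, with Col1a1, Postn and Fap under the floor on every array. Of 7 measured genes, 4 (Dcn, Col3a1, Fbln2 and Pdgfrb) were at least 2-fold higher in Snail-induced Flk1- than in untreated Flk1- cells, beside 2.95% of all. In Snail-induced Flk1+ against Snail-induced Flk1- cells 0 were higher, beside 4.85%. Dcn and, with both values under the floor, Lum were lower there, beside 4.89%. In Snail-induced Flk1+ against untreated Flk1- cells Col3a1, Fbln2 and Pdgfrb were higher, beside 8.10%. Lum was lower there, beside 6.41%, though its bound of at least 1.30-fold was short of 2-fold. Endothelial markers summed to 3947, 264 and 195 units. On the offset scale 8 of 9 were at least 2-fold higher in Snail-induced Flk1+ than in Snail-induced Flk1- cells, beside 4.85% of measured genes. Vim was also higher there, by 1.88-fold, 2.91-fold and 3.14-fold over its 3 probe sets. The part of endothelial cells in that difference was not tested. By the probe sets used, Cdh5, Pecam1, Tie1, Flt1 and Erg passed the floor in Flk1+ cells alone. A higher value there was thus built into their selection. Of these, Pecam1 and Tie1 were at least 1.75-fold and 1.67-fold higher, bounds short of 2-fold. Neural progenitor markers summed to 2134, 3197 and 3011 units. Of 9 measured genes, 2, Sox1 and Sox3, were at least 2-fold lower in Snail-induced Flk1+ than in Snail-induced Flk1- cells, beside 4.89% of all. In that comparison 0 were higher, beside 4.85%. Zic1 was higher on both Snail-induced arrays than in untreated Flk1- cells, with 296, 486 and 125 units, while Msi1, Hes5 and Tubb3 were not past 2-fold in any comparison. The line was labelled as embryonic stem cells, and its pluripotency markers summed to 13821, 24537 and 22637 units. Of these 7 genes, 4 were at least 2-fold lower in Snail-induced Flk1+ than in Snail-induced Flk1- cells, beside 4.89% of measured genes. The same number were lower against untreated Flk1- cells, beside 6.41%. In Snail-induced Flk1- against untreated Flk1- cells 0 passed 2-fold, beside 2.95% of measured genes higher and 2.03% lower. Nanog gave 203, 1584 and 1767 units, Sox2 1683, 5709 and 5023, Zfp42 383, 1574 and 1152, and Fgf4 23.5, 326 and 568. Pou5f1, at 3607, 5963 and 5224 units, was not past 2-fold.

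The genes most like each filament gene were those nearest to it in the plane of its 2 log2 differences, a likeness over 3 arrays only. Krt18 had few neighbours: 2 genes lay within 0.25, and the nearest were Nup210, a nuclear pore gene, at a distance of 0.09, Wfdc2 at 0.25 and Mgst1, a glutathione transferase gene, at 0.35. Nup210 gave 56.3 units in Snail-induced Flk1+ cells, 220 in Snail-induced Flk1- cells and 763 in untreated Flk1- cells. Krt8 sat among 1253 genes within 0.25 and Nes among 1505, so their nearest genes (B4galt6, Cds2 and Syt3, and C2cd4c, Rem2 and Lyar) are chosen from a crowd. Krt19 had 27 genes within 0.25, led by Tmem238, Ap1s3 and Gnmt, and Krt7 had 11, led by Muc13, a transmembrane mucin gene, Myl3 and Psd. Vim had 124, led by Cyth1, Capn2, the gene of a calpain protease, and Ccnd3, the cyclin D3 gene, and Lmna had 122, led by A630072M18Rik, Sspn and Tsc22d3. Lmnb1 had 676, led by Ypel5, Rabep2 and Sun2, the last a nuclear envelope gene that couples the lamina to the cytoskeleton, with 660, 444 and 402 units in Snail-induced Flk1+, Snail-induced Flk1- and untreated Flk1- cells.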

How the data were processed

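Gene expression was measured in 3 samples, 1 array each. Per the labels' protocols, biotinylated cRNA was made from total RNA by the standard Affymetrix procedure. The authors deposited a linear intensity for every probe set of each array, spanning 0.5 to 18191 in the values; the summary method, scaling and software were not given in the sources used here.

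Of 45037 probe sets, 34945 had 1 symbol, 932 several and 9160 none in the platform annotation; single symbols were updated by Entrez ID to the RefSeq gene table of GRCm38.p6 (204 kept the annotation's symbol). The scale used was log2(value + 9.53), with the 20th percentile as offset, so folds of dim genes are understated. Among a gene's probe sets the one of highest mean log2 value, called the brightest, stood for it. With 1 array per group there was no test, and genes at least 2-fold apart were counted. The counting was tested on simulated data. Named genes were the 8 members, the 3 nearest genes to each, and, from 6 filament lists, genes past 2-fold and up to 3 others of highest mean. Synm was also given, outside this rule. Lmnb2, the keratins under the floor and the marker genes given were picked after their values were seen. Members and lists were chosen with earlier results of these data known. Alternatives were quantile normalisation, centring, the mean of all probe sets, leaving out probe sets that can read several transcripts, a 3-fold threshold, no offset, no floor and a floor at the 60th percentile. Python 3.11.15 with pandas 2.3.3 was used.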

Additional observations from a re-analysis of the deposited data

How the results depend on the processing

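No paired analysis was possible because each group has 1 array, and for the same reason no array could be left out. Over the alternatives, 149 of 156 recomputed log2 differences of the 8 filament genes kept their direction and their side of 2-fold. Many of these could not change, so the count overstates how stable the values were. Moving or removing the floor left the value of each measured member as it was. The mean of probe sets could not move Krt7, Krt18 or Krt19, which have 1 probe set each. Leaving out shared probe sets could not move Krt18, Krt19, Nes or Lmnb1, whose brightest probe sets are not shared. Members not measured under a setting were not counted. No difference past 2-fold changed sign, while that of Krt8 near 0 did, as given above. The mean of all probe sets moved Vim past 2-fold in Snail-induced Flk1+ against Snail-induced Flk1- cells (1.37) and took Lmna below it in Snail-induced Flk1+ against untreated Flk1- cells (0.59); leaving out probe sets that can read several transcripts also moved Vim past it (1.54) and leaves Krt7, Krt8 and Lmna with no measured probe set. Without the offset Krt7 passed 2-fold in Snail-induced Flk1+ against Snail-induced Flk1- (1.05, both values under the floor) and against untreated Flk1- cells (-1.15). Members at least 2-fold higher in Snail-induced Flk1+ against Snail-induced Flk1- cells were 0 as reported and 1 under these 3 settings; against untreated Flk1- cells they were 2 as reported, 1 with the mean of probe sets or without shared probe sets, and 0 at 3-fold, where 1 member was lower in Snail-induced Flk1- against untreated Flk1- cells.

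Over all genes in that last comparison, 412 were higher and 283 lower; the mean of probe sets gave 264 and 179, the 60th percentile floor 168 lower, no offset 535 lower, and the 3-fold threshold 115 and 32. At 3-fold the counts for Snail-induced Flk1+ cells were 241 and 228 against their Flk1- counterpart and 513 and 396 against untreated Flk1- cells. Fewer genes pass a higher threshold or floor by construction; the cause of the other moves was not tested. Signal near the floor limits Krt7 and Krt19.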
